A study of Mus musculus with 16 samples.

Results

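Integrins and laminins were followed in compartmentalized motoneurons as 41 protein-coding genes. Their symbols start with Itga or Itgb followed by a number or the letter of a subunit, or with Lama, Lamb or Lamc followed by a number. The whole count table held 46320 genes, of which 22173 were protein-coding. The 41 genes were 27 integrin subunits, 11 laminin chains and 3 binding proteins that share the integrin beta prefix without being subunits (Itgb1bp1, Itgb1bp2 and Itgb3bp). RNA was taken from cultures of lumbar motoneurons of embryonic day 13 mice that were either +/+ or Hnrnpr-/-, the latter from a line in which genome editing removed the first exons of Hnrnpr, the gene of the RNA-binding protein hnRNP R. The cells were enriched by panning with a p75NTR antibody, which enriches motoneurons without removing all other cells, and were seeded into the somatodendritic side of microfluidic chambers. In both genotypes the chambers were coated with poly-l-lysine and laminin-111, both sides received CNTF at 5 ng/ml, and only the axonal side received BDNF at 20 ng/ml. Each of the 4 groups, which are the somatodendritic and axonal sides of +/+ and of Hnrnpr-/- cultures, had 4 libraries that the study describes as biological replicates.

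Integrins are receptors made of 1 alpha and 1 beta chain that span the plasma membrane, bind the extracellular matrix or other cells on the outside, and connect to actin through talin, kindlin and vinculin on the inside. Laminins are secreted trimers of an alpha, a beta and a gamma chain and form the sheet on which the other basement membrane proteins assemble. Neurons extend axons on laminin mainly through integrins of the beta1 class, in which alpha3, alpha6 and alpha7 are the classical laminin partners, alpha1 and alpha2 bind collagens and laminins, and alpha5, alphav and alpha8 bind proteins with an RGD motif such as fibronectin and vitronectin.

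Library totals lay between 22024923 and 34864151 counts, which sets a limit of 3 counts for a gene without any read in a library, covering counting error only. Values are given as CPM, the counts scaled to a common library size with TMM factors. Axonal cDNA received more PCR cycles than somatodendritic cDNA, so that protocol and compartment cannot be told apart. Hnrnpr had 4574 to 5913 counts in the +/+ and 13 to 27 in the Hnrnpr-/- somatodendritic libraries, and 3922 to 15608 against 18 to 38 in axonal libraries. Of 8 motoneuron marker genes, 6 were detected in every somatodendritic library, most of them at low levels. Ret reached 73.9 to 133 CPM, Slc18a3 3.90 to 11.6 CPM, Isl1 3.89 to 8.03 CPM, Slc5a7 2.72 to 7.74 CPM and Prph 1.09 to 2.47 CPM in these libraries, whereas Chat did not exceed 1.31 CPM, Isl2 stayed at or below 0.642 CPM, and Mnx1 was at 0 in every library except for 0.06 CPM in a single axonal one. Summed over the list, motoneuron markers fell between 89.9 and 155 CPM in somatodendritic and between 4.44 and 76.2 CPM in axonal libraries.

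Other cell types were represented on both sides of the chambers, and several of their marker lists moved with the compartment. The 7 mural markers summed to 61.0 to 446 CPM in somatodendritic and 1217 to 10968 CPM in axonal libraries, carried by Acta2, an actin of smooth muscle that activated fibroblasts also make, and by Tagln. The 7 astrocyte or radial glia markers summed to 916 to 2029.6 CPM in somatodendritic and 1909 to 4755 CPM in axonal libraries. The 7 fibroblast or meningeal markers (127 to 1331 and 120.4 to 1588 CPM), the 7 markers of the oligodendroglia or Schwann lineage (118 to 526 and 179 to 1283 CPM) and the 8 microglia or macrophage markers (7.51 to 100 and 0.697 to 234 CPM) overlapped between the compartments. Of the 6 endothelial markers, Cdh5, Cldn5 and Tie1 were at 0 in every +/+ axonal library, and Kdr was at 21.6 to 68.4 CPM in axonal libraries. The 4 nuclear RNAs summed to 1017 to 1655 CPM and 580.2 to 2536 CPM. In +/+ axons Malat1 and Neat1 rose (log2 fold changes of 2.26 and 2.11) and Meg3 and Snhg11 fell (-1.67 and -2.09). The 5 platelet or megakaryocyte markers summed to 18.4 to 23.6 CPM and 3.39 to 12.4 CPM. The somatodendritic sums were nearly all Gp1bb (18.3 to 23.4 CPM). Pf4 did not exceed 0.601 CPM there and 2.75 CPM in axonal libraries, and Ppbp, Gp9 and Treml1 did not exceed 0.124 CPM anywhere. The part of these cells in the differences between compartments was not tested, and in bulk RNA a smaller number of cells of a type and less RNA per cell cannot be told apart.

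The first comparison asked how transcripts of integrins and laminins differ between axons and cell bodies. In +/+ cultures, 19 of the 38 genes that passed the expression filter rose in axons and 1 fell (edgeR quasi-likelihood test with Benjamini-Hochberg adjustment over all genes, adjusted p under 0.05). Among all genes tested, 30.1% were called higher and 27.4% lower in axons. The median log2 fold change was 1.15 over the integrin and laminin genes and 0.07 over all genes. In Hnrnpr-/- cultures, 16 of 38 rose and 0 fell, beside 27.5% and 26.8% of all genes, with a median of 1.10. Of the genes called, 15 were shared, which is 15 of 20 in +/+ and 15 of 16 in Hnrnpr-/- cultures. Both comparisons came from the same fit, and no matching overlap over all genes was set beside this one. The overlap is therefore not read as a property of these genes. Without the 3 binding proteins, 16 of 35 rose in +/+ and 13 of 35 in Hnrnpr-/- cultures. This fit did not pair the compartments of a culture. With the culture as a block, 16 of 38 genes rose and 1 fell in +/+ cultures, and 16 of 38 rose in Hnrnpr-/- cultures. In 11 of 38 genes, every +/+ axonal library exceeded every +/+ somatodendritic library, as in 24.8% of all genes tested, and the same number was found in Hnrnpr-/- cultures beside 24.1% of all genes. The largest differences in both genotypes were found for Itga5, Itga1, Lama5 and Itgb1, as shown in the plot of fold changes by gene.

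**Figure D1:**
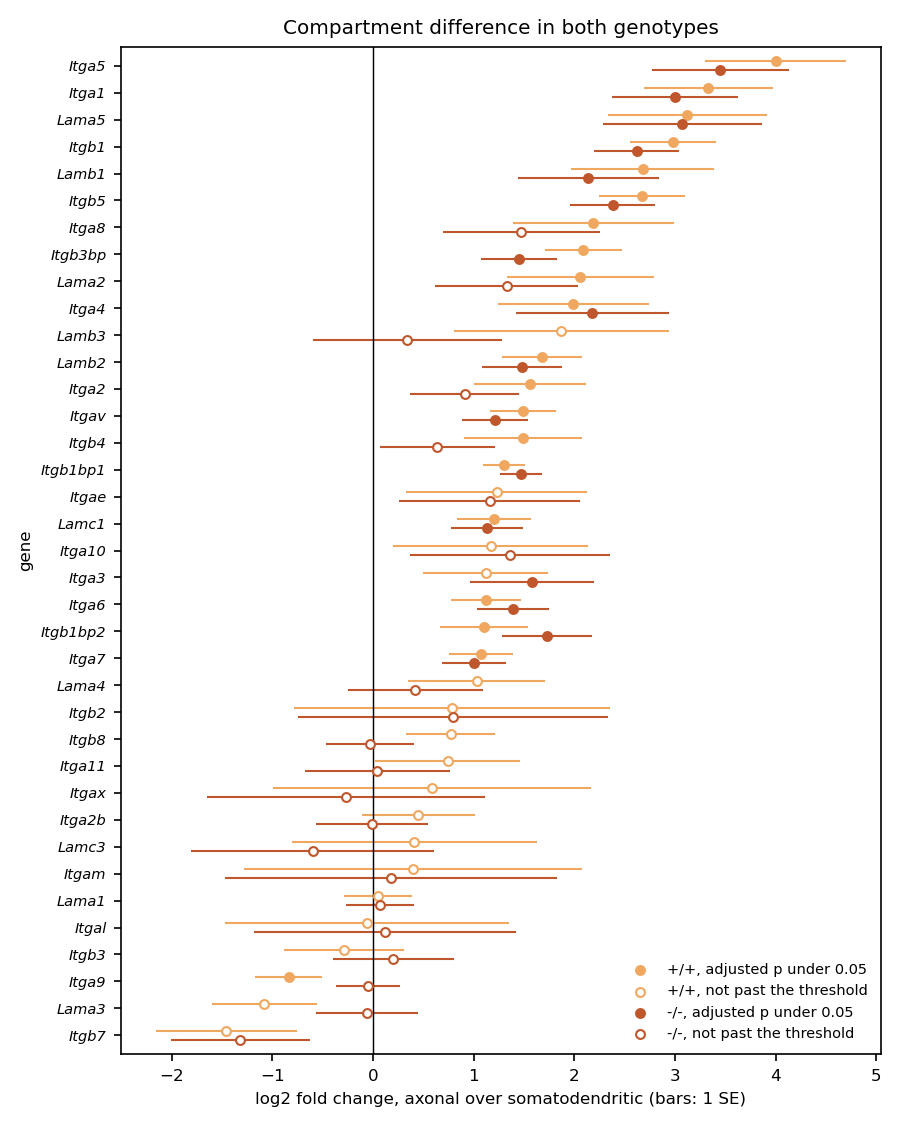
Log2 fold change of axonal over somatodendritic libraries (x axis, bars of 1 SE) for 37 of the integrin and laminin genes tested (y axis) in +/+ and Hnrnpr-/- cultures, with 4 libraries per group and filled points for an adjusted p under 0.05. Filled points lie to the right of 0, from Itga5 at 4.00 in +/+ cultures downwards, except for Itga9 at -0.84 in +/+ cultures.

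The beta1 subunit, Itgb1 (chr8:129412135-129460060, plus strand, GRCm39), is the common partner of most laminin and collagen binding alpha chains. It was at 147, 135, 269 and 128 CPM in +/+ somatodendritic libraries 1 to 4 and at 1037, 614, 1117 and 2601 CPM in the axonal libraries of the same numbers. The corresponding Hnrnpr-/- values were 156, 176, 284 and 207 CPM and 1489, 645, 1352 and 1580 CPM. Every axonal library lay above every somatodendritic one, with the lowest axonal level in library 2 of both genotypes. The rise was 7.90-fold in +/+ (log2 fold change 2.98 ± 0.43 SE, adjusted p = 9.38e-05) and 6.15-fold in Hnrnpr-/- cultures (2.62 ± 0.42, adjusted p = 0.000238). Itgb5 (chr16:33650035-33769708, plus strand), which pairs with alphav in vitronectin receptors, followed with 64.8, 44.0, 88.5 and 41.4 CPM in +/+ somatodendritic and 386, 128, 408 and 600.4 CPM in +/+ axonal libraries. Hnrnpr-/- libraries held 54.5, 57.3, 84.3 and 97.2 CPM of Itgb5 on the somatodendritic and 492, 232, 286 and 520 CPM on the axonal side. Its groups did not overlap, and it rose by 2.67 ± 0.43 (adjusted p = 0.000178) and 2.38 ± 0.42 on the log2 scale (adjusted p = 0.000422).

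Itgb8, the partner of alphav in a receptor that activates latent TGF-beta, did not share this pattern. Its +/+ values were 19.5, 19.7, 19.4 and 10.1 CPM in somatodendritic and 17.9, 67.8, 19.4 and 11.9 CPM in axonal libraries. Its Hnrnpr-/- values were 14.5, 17.5, 19.5 and 20.0 CPM and 11.5, 26.0, 15.0 and 17.7 CPM. The groups overlapped in both genotypes, and the high +/+ axonal value came from library 2, in which Itgb1 and Itgb5 were lowest among the +/+ axonal libraries. The log2 differences of Itgb8 were 0.77 ± 0.44 (adjusted p = 0.149) and -0.03 ± 0.44 (adjusted p = 0.964). The remaining beta subunits, apart from Itgb2 and Itgb2l, had low levels. Itgb3, of the platelet and vitronectin receptors, lay between 0.352 and 7.21 CPM over all libraries without a called difference, and Itgb6 between 0 and 0.232 CPM. Itgb4, the partner of alpha6 in hemidesmosomes, was called higher in +/+ axons (0.988 to 3.68 against 0.235 to 1.27 CPM, log2 fold change 1.49 ± 0.59, adjusted p = 0.0429) and not in Hnrnpr-/- axons (0.64 ± 0.57, adjusted p = 0.364). The call of Itgb4 was lost with the culture as a block (adjusted p = 0.0616), without a filter on expression, in limma voom, in a fit of the 8 +/+ libraries and without axonal library 3 of both genotypes (adjusted p between 0.0532 and 0.0710). It was also lost without +/+ somatodendritic library 2 or 4, +/+ axonal library 2 or 4, or Hnrnpr-/- somatodendritic library 3 (adjusted p between 0.0549 and 0.133). In the GENCODE vM39 annotation, 14.9% of its exon bases are shared with Galk1 on the other strand. Itgb7, a leukocyte homing receptor chain, had non-overlapping lower values in axons of both genotypes (0 to 0.954 against 1.03 to 1.90 CPM in +/+) and did not pass the test (-1.46 ± 0.70, adjusted p = 0.0871, and -1.32 ± 0.69, adjusted p = 0.119). In +/+ cultures Itgb7 was called lower in DESeq2 with default settings (-1.46, adjusted p = 0.0392), in limma voom (-2.62, adjusted p = 0.024) and without +/+ axonal library 2 (-1.04, adjusted p = 0.0332). In Hnrnpr-/- cultures it was called lower without this library (-1.33, adjusted p = 0.00615) and in a fit of the 8 libraries of the genotype (-1.26, adjusted p = 0.0224).

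**Figure D2:**
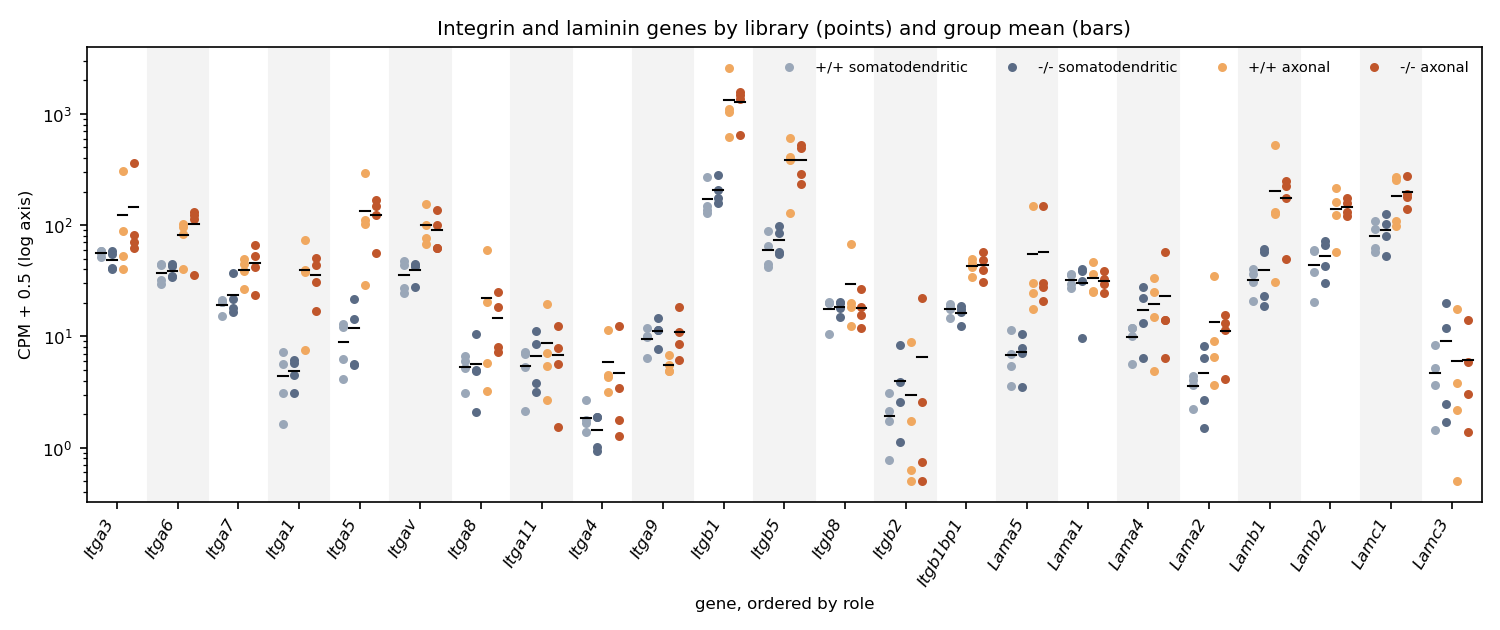
CPM + 0.5 on a log axis (y axis) of 23 integrin and laminin genes with a mean of at least 5 CPM in any group (x axis, ordered by role), with a point for each of the 16 libraries and a bar for the mean of 4 libraries per group. Axonal points of Itgb1, Itgb5, Itga5, Itga1, Itgav and Lama5 lie above the somatodendritic points in both genotypes, whereas those of Lama1, Itgb8 and Lamc3 overlap with them.

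Among the alpha chains that bind RGD motifs, 3 of 4 were called higher in +/+ and 2 of 4 in Hnrnpr-/- axons, beside 30.1% and 27.5% of all genes. Itga5 (chr15:103252713-103275218, minus strand), which forms the fibronectin receptor with beta1, was at 5.76, 3.65, 12.5 and 11.6 CPM in +/+ somatodendritic and at 102, 28.7, 111 and 291 CPM in +/+ axonal libraries. Without hnRNP R the values were 5.10, 5.07, 13.7 and 21.3 CPM and 123, 55.9, 147 and 168 CPM. No axonal library reached down to the somatodendritic range. The increase of Itga5 was 15.9-fold (log2 fold change 4.00 ± 0.70, adjusted p = 0.000338) and 10.9-fold (3.45 ± 0.68, adjusted p = 0.000886), the largest of all integrin and laminin genes in both genotypes, and without +/+ axonal library 4 it was 3.32 on the log2 scale (adjusted p = 0.000697).

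Itgav, the alpha chain shared by several vitronectin and fibronectin receptors, was at 43.4, 26.9, 47.5 and 23.9 CPM in +/+ somatodendritic and 76.3, 66.7, 99.9 and 155 CPM in +/+ axonal libraries. It was at 42.4, 27.5, 44.1 and 42.2 CPM and 136, 62.4, 62.1 and 99.6 CPM in Hnrnpr-/- libraries. The groups did not overlap in either genotype, and Itgav rose by 1.49 ± 0.33 (adjusted p = 0.00156) and 1.21 ± 0.33 (adjusted p = 0.00623) on the log2 scale. Per kilobase of exon, Itga5 made up 28.0% ± 11.1 (SD, n = 4) of the transcripts of the 4 RGD-binding alpha chains in +/+ somatodendritic and 63.8% ± 11 in +/+ axonal libraries, whereas Itgav went from 53.9% ± 11.5 to 28.6% ± 14. Itga8, an alpha chain of mesenchymal cells and some neurons, was at 6.16, 2.61, 4.72 and 5.54 CPM and at 20.0, 2.7, 5.26 and 58.8 CPM in +/+ somatodendritic and axonal libraries. There were 4.45, 1.6, 10.1 and 4.38 CPM and 18, 7.52, 6.72 and 24.6 CPM in Hnrnpr-/- ones. Its values overlapped. Itga8 was called in +/+ cultures (2.19 ± 0.80, adjusted p = 0.0295) and not in Hnrnpr-/- cultures (1.47 ± 0.78, adjusted p = 0.126). The +/+ call of Itga8 was lost with the culture as a block (1.31, adjusted p = 0.117), in limma voom (1.27, adjusted p = 0.157), without +/+ axonal library 4 (1.02, adjusted p = 0.217) and without +/+ somatodendritic library 2, 3 or 4 (adjusted p between 0.0501 and 0.0733). Itga2b, of the platelet fibrinogen receptor, stayed between 0.243 and 4.16 CPM without a called difference.

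Itga5 and Itgb1 together encode the fibronectin receptor, and their promoters are shown because these transcripts rose together in axons of both genotypes. The sequences, each of 300 bases around the RefSeq transcription start in GRCm38.p6 and written 5′ to 3′ on the strand of the gene, lie at chr15:103366742-103367041 (minus strand, Itga5) and chr8:128685404-128685703 (plus strand, Itgb1). Capitals mark GC boxes (GGGCGG on either strand) and the core of TEAD sites (GGAATG on either strand).
Itga5 promoter: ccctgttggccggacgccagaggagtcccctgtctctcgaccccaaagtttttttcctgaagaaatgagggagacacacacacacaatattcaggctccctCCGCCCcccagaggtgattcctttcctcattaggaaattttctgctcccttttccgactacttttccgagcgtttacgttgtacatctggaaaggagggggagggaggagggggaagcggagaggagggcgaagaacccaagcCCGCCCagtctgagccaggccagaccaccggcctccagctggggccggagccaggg
Itgb1 promoter: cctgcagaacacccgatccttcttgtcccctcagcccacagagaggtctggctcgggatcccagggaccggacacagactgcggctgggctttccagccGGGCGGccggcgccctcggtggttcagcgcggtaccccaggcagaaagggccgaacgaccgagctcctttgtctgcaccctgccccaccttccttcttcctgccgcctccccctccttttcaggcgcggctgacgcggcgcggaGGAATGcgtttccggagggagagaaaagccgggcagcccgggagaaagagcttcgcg
The Itga5 promoter held 2 GC boxes and a GC content of 58.7%, and the Itgb1 promoter held 1 GC box, 1 TEAD core and a GC content of 67.3%. RefSeq promoters were found for 26 of the 41 genes. A GC box was found in 11 of these 26 (42.3%), in 9 of the 14 that were called higher in +/+ axons (64.3%) and in 35.9% of all 27025 promoters. Among the same 14, the TEAD core and the CArG box were each found in 1 (7.14%) and AP-1 sites in 0 (0.0%). The TEAD core was found in 2 of 26 (7.69%, Itga10 and Itgb1) beside 14.6% of all promoters, AP-1 sites (TGANTCA) in 2 of 26 (7.69%) beside 7.93%, and CArG boxes in 1 of 26 (3.85%, Lama2) beside 1.57%. These matches describe letters in the printed window and do not show binding of a factor.

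Of the 5 alpha chains that bind laminins (Itga1, Itga2, Itga3, Itga6 and Itga7), 4 were called higher in each genotype, beside 30.1% of all genes in +/+ and 27.5% in Hnrnpr-/- axons. Itga1 (chr13:115094615-115238500, minus strand), which binds collagen IV and laminins, was at 2.59, 1.13, 6.71 and 5.12 CPM in +/+ somatodendritic and at 38.8, 7.09, 37.6 and 72.3 CPM in +/+ axonal libraries. Hnrnpr-/- libraries held 3.95, 2.60, 5.61 and 5.28 CPM and 43.1, 16.3, 30.5 and 49.8 CPM. The groups did not overlap, and Itga1 rose 10.0-fold (3.33 ± 0.64, adjusted p = 0.000635) and 8-fold (3 ± 0.63, adjusted p = 0.00131). In the GENCODE vM39 annotation, 10.2% of its exon bases are shared with Mocs2 on the other strand. The cDNA kit does not keep the strand of the RNA, so reads of such overlaps cannot be assigned with certainty.

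Itga6, the classical neuronal laminin receptor chain, was at 43.3, 31.3, 44.1 and 29.0 CPM in +/+ somatodendritic and 102, 82.9, 96.5 and 39.8 CPM in +/+ axonal libraries. There were 33.5, 34.1, 42.5 and 44.1 CPM and 34.9, 132, 123 and 114 CPM in Hnrnpr-/- ones. A single axonal library in each genotype, +/+ library 4 and Hnrnpr-/- library 1, reached into the somatodendritic range. Itga6 rose by 1.12 ± 0.35 (adjusted p = 0.0142) and 1.39 ± 0.36 (adjusted p = 0.00462). Itga7, a laminin receptor chain known from muscle and regenerating axons, was at 19.9, 20.9, 19.7 and 14.6 CPM and 48.8, 38.4, 44.2 and 26.2 CPM in +/+ cultures. Its Hnrnpr-/- values were 17.4, 21.3, 16.2 and 36.6 CPM and 22.9, 41.9, 65.1 and 52.6 CPM. The +/+ groups of Itga7 did not overlap, those of Hnrnpr-/- cultures did, and the rises were close to each other (1.07 ± 0.32, adjusted p = 0.0099, and 1.00 ± 0.32, adjusted p = 0.0152), with an adjusted p of 0.0512 in Hnrnpr-/- cultures without somatodendritic library 3 and of 0.0658 without axonal library 3 of both genotypes.

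Itga3 (chr11:94935301-94967637, minus strand), a receptor chain for laminins with the alpha5 or alpha3 chain, was high in a single axonal library of each genotype. Its somatodendritic values were 55.5, 58.4, 58.0 and 51.5 CPM in +/+ and 57.7, 40.5, 55.0 and 40.0 CPM in Hnrnpr-/- cultures. The axonal values were 40.1, 52.5, 306 and 88.4 CPM and 70.2, 81.6, 364 and 62.0 CPM, so that library 3 stood far above the others in both genotypes. Itga3 was not called in +/+ (1.12 ± 0.62, adjusted p = 0.131), where it was 0.61 with the culture as a block, 0.16 without +/+ axonal library 3 (adjusted p = 0.814) and 1.17 without Hnrnpr-/- axonal library 3, where it was called. It was called in Hnrnpr-/- cultures (1.58 ± 0.62, adjusted p = 0.0433), where the call was lost with the culture as a block (1.14, adjusted p = 0.0813), without axonal library 3 (0.60, adjusted p = 0.344) and without each somatodendritic library in turn (adjusted p between 0.0632 and 0.0937). Itga2, a collagen receptor chain, was low at 0.27 to 1.15 CPM in +/+ somatodendritic and 1.23 to 2.38 CPM in +/+ axonal libraries. It was called in +/+ (1.56 ± 0.56, adjusted p = 0.0264) and not in Hnrnpr-/- cultures (0.91 ± 0.54, adjusted p = 0.172), and the +/+ call was lost without somatodendritic library 2, 3 or 4 or axonal library 2 (adjusted p between 0.0511 and 0.0673).

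Of the 4 other alpha chains outside leukocytes, Itga9 (chr9:118435777-118730071, plus strand), which binds tenascin C, was the only integrin or laminin gene called lower in +/+ axons in the fit of all 16 libraries. Its levels were 9.66, 11.3, 5.84 and 9.39 CPM in +/+ somatodendritic and 6.37, 4.43, 5.00 and 4.37 CPM in +/+ axonal libraries, lower in axons in 4 of 4 cultures although the ranges touched. Hnrnpr-/- libraries had 7.16, 10.9, 10.9 and 14.2 CPM on the somatodendritic and 8.05, 10.4, 5.58 and 17.8 CPM on the axonal side. The log2 fold change of Itga9 was -0.84 ± 0.33 in +/+ (adjusted p = 0.0392) and -0.05 ± 0.32 in Hnrnpr-/- cultures (adjusted p = 0.915). The +/+ call of Itga9 was lost on library totals without TMM factors (-0.69, adjusted p = 0.108), in limma voom (-0.82, adjusted p = 0.104), without a filter on expression (-0.82, adjusted p = 0.0675), with a filter of 10 counts per library (-0.78, adjusted p = 0.0526). The same held without +/+ somatodendritic library 1, 2 or 4 or +/+ axonal library 2, 3 or 4, and without Hnrnpr-/- somatodendritic library 2 (adjusted p between 0.0603 and 0.130).

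Itga4, a chain of fibronectin and VCAM-1 receptors found on neural crest and blood cells, was at 1.15, 1.26, 0.87 and 2.16 CPM in +/+ somatodendritic and 4.02, 2.68, 3.83 and 11 CPM in +/+ axonal libraries. Its Hnrnpr-/- values were 1.40, 0.433, 0.503 and 1.37 CPM and 2.91, 1.27, 0.78 and 11.9 CPM. Itga4 was called in both genotypes (1.99 ± 0.75, adjusted p = 0.0343, and 2.18 ± 0.76, adjusted p = 0.0253), but axonal library 4 carried much of it, with 1.42 (adjusted p = 0.121) without this library in +/+ and 0.83 (adjusted p = 0.269) in Hnrnpr-/- cultures. The calls were also lost without +/+ somatodendritic library 1, 2 or 3 (adjusted p between 0.0688 and 0.0800) and without Hnrnpr-/- somatodendritic library 2 or 3 (0.0674 and 0.0701), and for Hnrnpr-/- cultures in limma voom (1.53, adjusted p = 0.0763) and in a fit of the 8 libraries of this genotype (adjusted p = 0.0589). In addition, 20.8% of the exon bases of Itga4 in GENCODE vM39 are shared with Cerkl on the other strand. Itga11, a collagen receptor chain of fibroblasts, was at 4.83, 1.62, 6.75 and 6.43 CPM and 6.61, 2.16, 4.94 and 19.1 CPM in +/+ and at 3.29, 2.64, 10.6 and 8.11 CPM and 7.41, 1.02, 5.10 and 11.8 CPM in Hnrnpr-/- cultures, with overlapping groups and no call (0.74 ± 0.72, adjusted p = 0.397, and 0.04 ± 0.72, adjusted p = 0.968). Itga10 did not exceed 1.66 CPM in any library.

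The integrins of leukocytes had high values in single libraries and no called difference between compartments in the fit of all 16 libraries. Itgb2, the beta chain that pairs with Itgal, Itgam, Itgax and Itgad, was at 1.63, 1.22, 2.57 and 0.282 CPM in +/+ somatodendritic and at 8.48, 0, 0.13 and 1.22 CPM in +/+ axonal libraries. Hnrnpr-/- libraries held 0.618, 2.08, 3.39 and 7.81 CPM and 0, 2.05, 0.24 and 21.7 CPM. The axonal libraries with most Itgb2 were thus +/+ library 1 and Hnrnpr-/- library 4, and these had 69.7 and 234 CPM of summed microglia or macrophage markers, beside 0.697 to 30.5 CPM in the other 6 axonal libraries. Itgam, the alpha chain of the complement receptor, was at 5.62 and 8.69 CPM in the same 2 libraries and at or below 0.745 CPM in the other axonal ones. With these 2 libraries left out, Itgam was called lower in +/+ axons (-4.34, adjusted p = 0.0326). In GENCODE vM39, 67.4% of its exon bases are shared with Gm49368 on the same strand, but 0 genes of the count table overlapped it on its strand. Itgb2 had log2 differences between compartments of 0.78 ± 1.57 (adjusted p = 0.692) and 0.79 ± 1.54 (adjusted p = 0.686). Itgal, Itgax, Itgae and Itgad stayed at or below 2.52 CPM. Itgb2l was at 0 in all 8 axonal libraries and at 0.0419 to 0.257 CPM in somatodendritic ones, and with Itgad and Itgb6 it did not pass the filter. It was called lower in axons without a filter (adjusted p = 0.00984 in +/+ and 0.00656 in Hnrnpr-/- cultures) and in both DESeq2 settings (0.0165 and 0.0216 in +/+, 0.00649 and 0.00622 in Hnrnpr-/- cultures).

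Laminin chains were called higher in axons in 5 of 11 cases in +/+ and in 4 of 11 in Hnrnpr-/- cultures, beside 30.1% and 27.5% of all genes. Their median log2 fold changes were 1.2 and 1.08. Among the alpha chains, Lama1, the alpha chain of the laminin-111 that coated the chambers, had overlapping levels in both compartments. It was at 35.2, 29.1, 35.5 and 26.6 CPM in +/+ somatodendritic and 25.2, 24.3, 35.6 and 46.0 CPM in +/+ axonal libraries. Hnrnpr-/- libraries had 30.8, 9.27, 39.6 and 38.5 CPM and 29.3, 32.6, 38.1 and 23.9 CPM. Its log2 fold change was 0.05 in +/+ (95% interval -0.68 to 0.78, adjusted p = 0.905) and 0.07 in Hnrnpr-/- cultures (95% interval -0.66 to 0.80, adjusted p = 0.881). Because other alpha chains rose, Lama1 made up 56.7% ± 5.83 of laminin alpha chain transcripts per kilobase in +/+ somatodendritic and 30.5% ± 10.6 in +/+ axonal libraries, with ranges of 52.7% to 65.3% and 18.6% to 44.3%. Without hnRNP R the shares were 42.9% ± 4.54 (39.0% to 48.2%) and 29.6% ± 14.5 (15.4% to 44.7%), and these ranges overlapped.

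Lama5 (chr2:179818166-179868092, minus strand), the alpha chain of laminins in mature basement membranes, was at 6.40, 4.91, 10.9 and 3.05 CPM in +/+ somatodendritic and at 17.2, 24.2, 149 and 29.7 CPM in +/+ axonal libraries. There were 9.92, 3.03, 7.37 and 6.65 CPM and 20.5, 29.7, 149 and 27 CPM in Hnrnpr-/- ones. Its groups did not overlap, and axonal library 3 stood apart in both genotypes, as for its receptor chain Itga3. Lama5 rose by 3.12 ± 0.79 (adjusted p = 0.00392) and 3.07 ± 0.79 (adjusted p = 0.00475). Without axonal library 3 of the respective genotype, the rise was 1.95 (adjusted p = 0.0207) and 1.97 (adjusted p = 0.0243). Lama2, the alpha chain of muscle and Schwann cell laminins, was at 3.92, 1.71, 3.19 and 3.57 CPM and 5.99, 3.19, 8.58 and 34.2 CPM in +/+ cultures, and at 2.18, 0.996, 5.86 and 7.77 CPM and 10.8, 3.66, 12.8 and 15.1 CPM in Hnrnpr-/- ones. It was higher in axons in 4 of 4 cultures of each genotype. Lama2 was called in +/+ (2.06 ± 0.73, adjusted p = 0.0248) but not in limma voom (1.51, adjusted p = 0.0874), without axonal library 4 (0.98, adjusted p = 0.184) or without somatodendritic library 2 (adjusted p = 0.0642). In Hnrnpr-/- cultures Lama2 was not called (1.33 ± 0.71, adjusted p = 0.127), but was with the culture as a block (1.54, adjusted p = 0.0126).

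Lama4, the alpha chain of vessels and of perineurial and Schwann cells, was at 11.5, 5.13, 11.3 and 9.53 CPM and 24.8, 4.43, 14.4 and 32.9 CPM in +/+ cultures. In Hnrnpr-/- cultures it was at 12.8, 5.85, 21.6 and 27.1 CPM and 5.87, 13.4, 13.5 and 57.2 CPM. Its groups overlapped, with no call (1.03 ± 0.68, adjusted p = 0.207, and 0.42 ± 0.67, adjusted p = 0.620). Lama3, of epithelial laminins, did not exceed 4.02 CPM. Its +/+ values were lower in axons without overlap (0.487 to 1.17 against 1.39 to 1.74 CPM) and did not pass the test (-1.08 ± 0.52, adjusted p = 0.0875), and the Hnrnpr-/- groups overlapped (-0.06 ± 0.51, adjusted p = 0.926). In +/+ axons Lama3 was called lower in a fit of the 8 +/+ libraries (-1.06, adjusted p = 0.0446), without axonal library 3 of both genotypes (-1.36, adjusted p = 0.0321) and without Hnrnpr-/- axonal library 1 (-1.09, adjusted p = 0.0314). Of the beta chains, Lamb1 (chr12:31315230-31379643, plus strand), the beta chain of laminin-111, was at 30.6, 20.1, 35.7 and 39.7 CPM in +/+ somatodendritic and 130.3, 30.0, 125 and 524 CPM in +/+ axonal libraries. Hnrnpr-/- libraries held 22.4, 18.2, 56.6 and 60.2 CPM and 223, 48.9, 176 and 248 CPM, and the lowest axonal value of each genotype, in library 2, reached into the somatodendritic range. Lamb1 rose by 2.68 ± 0.71 (adjusted p = 0.00524) and 2.14 ± 0.70 (adjusted p = 0.0177). The +/+ rise was 2.04 with the culture as a block (adjusted p = 0.00573) and in limma voom (adjusted p = 0.0155) and 1.65 without axonal library 4 (adjusted p = 0.0263). The Hnrnpr-/- call was lost without somatodendritic library 1 (1.99, adjusted p = 0.0508) and without +/+ axonal library 1 and Hnrnpr-/- axonal library 4 (1.92, adjusted p = 0.0520).

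Lamb2, the beta chain enriched at neuromuscular synapses, was at 58.7, 37.3, 57.6 and 20.0 CPM and 122, 56.8, 161 and 217 CPM in +/+ and at 42.8, 29.6, 71.2 and 65.9 CPM and 156, 132, 175 and 120.3 CPM in Hnrnpr-/- cultures. It rose in both (1.68 ± 0.40, adjusted p = 0.00273, and 1.48 ± 0.40, adjusted p = 0.00642). Per kilobase, Lamb2 made up 57.3% ± 15.5 of beta chain transcripts in +/+ somatodendritic (34.2% to 66.5%) and 50.6% ± 15.4 in +/+ axonal libraries (30.0% to 66.2%), a difference within the spread between libraries. Which of Lamb1 and Lamb2 was more abundant thus changed from library to library. Lamc1 (chr1:153094668-153208532, minus strand), the gamma chain of most laminins, was at 92.0, 62.2, 108 and 56.9 CPM and 109, 97.6, 269 and 255 CPM in +/+ and at 79.2, 52.8, 102 and 125 CPM and 140.1, 179.8, 276 and 188 CPM in Hnrnpr-/- cultures. Lamc1 rose by 1.2 ± 0.37 (adjusted p = 0.0118) and 1.13 ± 0.36 (adjusted p = 0.0171, and 0.0503 without Hnrnpr-/- axonal library 3), and provided 84.0% ± 8.24 of gamma chain transcripts per kilobase in +/+ somatodendritic and 90.5% ± 2.5 in +/+ axonal libraries.

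Lamc3, another gamma chain, was not called. It was at 4.68, 0.945, 3.15 and 7.79 CPM in +/+ somatodendritic and 1.70, 0, 3.31 and 17 CPM in +/+ axonal libraries. Hnrnpr-/- libraries held 1.98, 1.21, 11.5 and 19.3 CPM and 0.872, 2.52, 5.40 and 13.6 CPM. Library 4 held most Lamc3 in all 4 groups, and the compartments did not differ beyond error (0.41 ± 1.22, adjusted p = 0.790, and -0.60 ± 1.21, adjusted p = 0.694). Lamb3 did not exceed 0.91 CPM.

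The 3 binding proteins rose in axons of both genotypes. Itgb1bp1, which binds the tail of beta1 and competes with talin, was at 19.2, 14, 18 and 17 CPM and 44.7, 33.6, 48.6 and 41.6 CPM in +/+ and at 11.9, 18.1, 16.1 and 17.2 CPM and 39.3, 30.1, 48.3 and 57.2 CPM in Hnrnpr-/- cultures. The groups were well apart and this gene varied less between axonal libraries than the subunits did, with rises of 1.30 ± 0.21 (adjusted p = 0.000163) and 1.47 ± 0.21 (adjusted p = 0.000103). However, 34.1% of its exon bases in GENCODE vM39 are shared with Asap2 on the other strand. Itgb3bp, also known as a centromere protein, was at 0.935 to 1.41 CPM and 3.24 to 6.44 CPM in +/+ cultures and rose by 2.09 ± 0.38 (adjusted p = 0.00046) and 1.45 ± 0.38 (adjusted p = 0.0049). Of its exon bases in GENCODE vM39, 11.8% are shared with Alg6, 6.19% with Pgm1 and 3.59% with Efcab7 on the other strand. Itgb1bp2, a chaperone of striated muscle, stayed at or below 2.82 CPM and was called in both genotypes (1.10 ± 0.44, adjusted p = 0.0444, and 1.73 ± 0.45, adjusted p = 0.00505). The +/+ call of Itgb1bp2 was lost with the culture as a block (adjusted p = 0.0942). It was also lost without a filter on expression, in limma voom and in a fit of the 8 +/+ libraries (adjusted p between 0.0548 and 0.0727). The same held without +/+ somatodendritic library 1, 2 or 4, +/+ axonal library 2 or 3, Hnrnpr-/- somatodendritic library 4, Hnrnpr-/- axonal library 2 or axonal library 3 of both genotypes (adjusted p between 0.0543 and 0.145).

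Levels were compared between genes per kilobase of exon. In +/+ axonal libraries, Itgb1 stood first at 320.0 ± 207 CPM per kb (SD, n = 4), followed by Itgb5 at 107 ± 54.6, Lamb1 at 34.6 ± 37.5, Itga5 at 29.8 ± 25.0, Lamb2 at 24.7 ± 11.9, Lamc1 at 24.0 ± 12.1 and Itga3 at 22.9 ± 23.4 CPM per kb. The genes from Lamb1 to Itga3 lay within each other's spread. In +/+ somatodendritic libraries, Itgb1 was also first at 40.5 ± 15.9 CPM per kb, followed by Itgb5 at 16.8 ± 6.15, Itga3 at 10.5 ± 0.591 and Lamc1 at 10.5 ± 3.18, whereas Itga5 was at 1.87 ± 0.969 CPM per kb. Itgb1 made up 66.9% ± 3.58 of the transcripts of the 7 beta chains other than Itgb2 and Itgb2l in +/+ somatodendritic and 73.3% ± 4.90 in +/+ axonal libraries.

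The axonal libraries differed strongly among themselves, and the differences ran across genotypes. Among the 24 genes that reached a group mean of 5 CPM, 12 were highest in +/+ axonal library 4 among the 8 axonal libraries, and 12 were lowest in +/+ axonal library 2. Over all genes with at least 5 CPM in an axonal library, +/+ library 4 was the highest for 12.8% and +/+ library 2 the lowest for 24.1%. The 12 genes highest in +/+ library 4 included Itga1, Itga5, Itgav, Itgb1, Itgb5, Lama2, Lamb1 and Lamb2, and this library had 1588 CPM of summed fibroblast or meningeal markers, beside 120.4 CPM in +/+ library 2. Hnrnpr-/- library 4 had nearly the same sum, 1582 CPM, and was the highest for 5 other genes, namely Itga4, Itga9, Itgb1bp1, Itgb2 and Lama4. Axonal library 3 of both genotypes was high for Lama5 and Itga3. Its mural markers summed to 10968 and 9675 CPM, beside 1217 to 4913 CPM in the other 6 axonal libraries. Acta2 alone made up 9784 and 8734 CPM of these sums, and Tagln 1043 and 805 CPM. The other mural markers were highest in another axonal library of each genotype. Pdgfrb was at 74.8 and 93.3 CPM in library 3, beside 458 CPM in +/+ library 4 and 287 CPM in Hnrnpr-/- library 1. With axonal library 3 of both genotypes left out, 17 of the integrin and laminin genes were called higher in +/+ and 14 in Hnrnpr-/- axons. Without +/+ axonal library 1 and Hnrnpr-/- axonal library 4, the ones with most microglia or macrophage markers, the numbers were 19 and 14. The part of non-neuronal cells in these patterns was not tested.

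**Figure D3:**
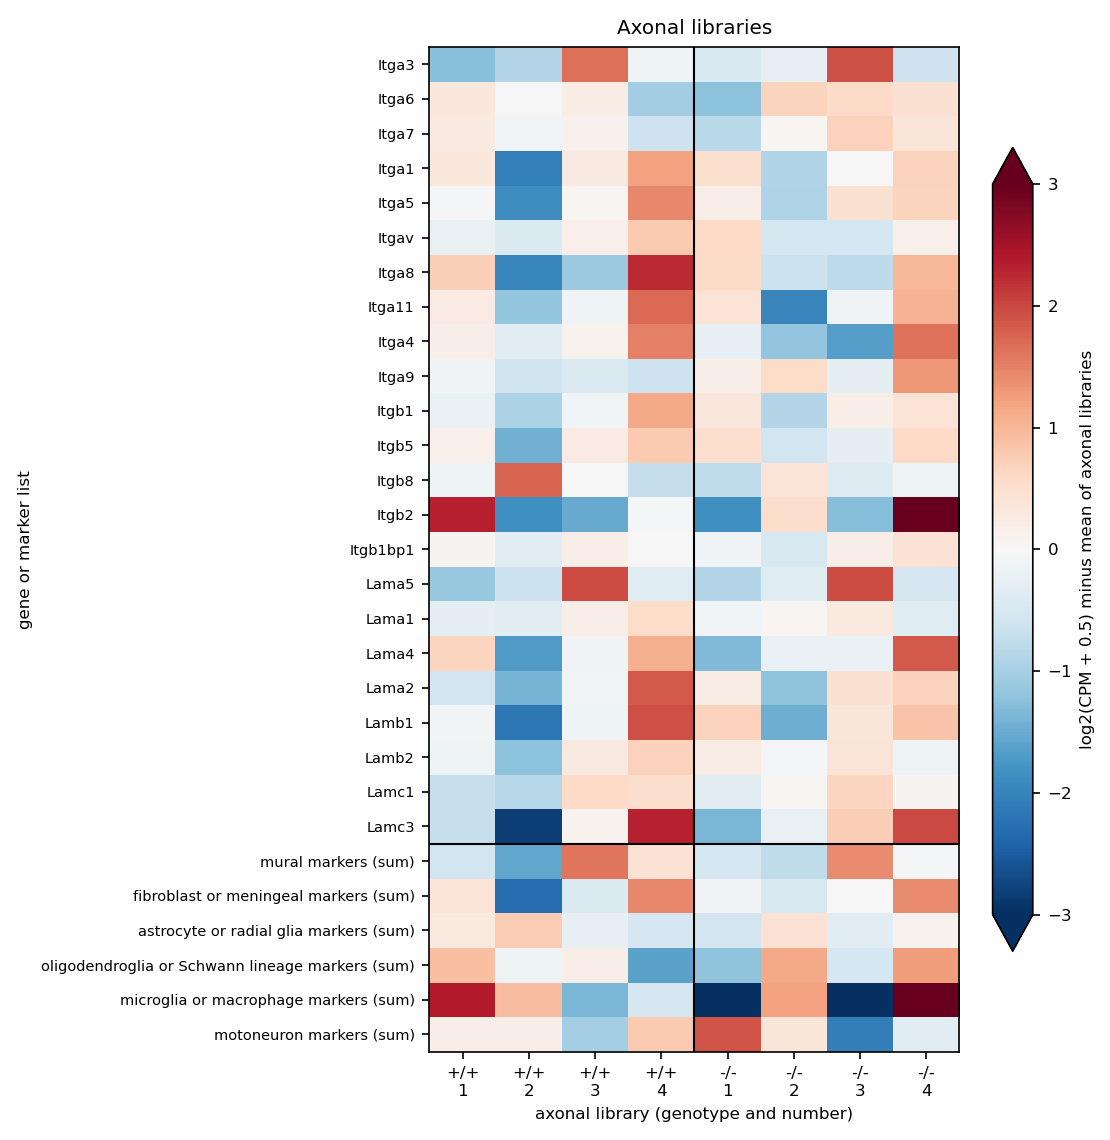
Deviation of log2(CPM + 0.5) from the mean of the 8 axonal libraries (color) for 23 integrin and laminin genes and for 6 marker lists summed over their genes (rows) in each axonal library (columns). Lama5 and Itga3 are high together with the mural sum, which is mostly Acta2, in library 3 of both genotypes. Itgb2 is high together with the microglia or macrophage markers in +/+ library 1 and Hnrnpr-/- library 4.

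The second comparison addressed whether loss of hnRNP R alters these transcripts. In axons, 0 of 35 integrin and laminin genes tested passed the adjusted threshold, beside 0.00528% of all genes, which is Hnrnpr alone, and 1 of 35 had an unadjusted p under 0.05, beside 0.723% of all genes. In the somatodendritic compartment, 0 of 34 passed, beside 0.00557% of all genes, again Hnrnpr alone, and 2 of 34 had an unadjusted p under 0.05, beside 2.62%. DESeq2 and limma voom also called 0 of them in both compartments. The median log2 fold change of Hnrnpr-/- over +/+ axons was 0.06, beside 0.02 over all genes, and its sign was not stable (-0.30 to 0.21 over the alternatives, -0.16 to 0.38 with single libraries left out). On the somatodendritic side it was 0.27, beside 0.01 over all genes (0.09 to 0.30 over the alternatives, 0.10 to 0.36 with single libraries left out). A positive value was found in 28 of the 34 genes on this side, beside 7581 of 14436 protein-coding genes. Markers of several other cell types also had positive values there. The log2 fold changes of the tested markers ran from 0.26 to 3.35 in the endothelial list, 0.37 to 1.75 in the fibroblast or meningeal list, 0.83 to 1.62 in the microglia or macrophage list and 0.01 to 1.62 in the astrocyte or radial glia list. They ran from 0.00 to 1.02 in the oligodendroglia or Schwann lineage list and from -0.21 to 0.78 in the mural list. An unadjusted p under 0.05 was reached by 3 endothelial markers (Pecam1, Cldn5 and Tie1), 2 astrocyte or radial glia markers (Gfap and Aqp4) and 0 of the other lists named here. None passed the adjustment in edgeR. Summed levels in Hnrnpr-/- and +/+ somatodendritic libraries were 7.19 to 35.7 and 3.38 to 12.7 CPM for endothelial, 156 to 1331 and 127 to 541 CPM for fibroblast or meningeal, 7.78 to 100 and 7.51 to 33.8 CPM for microglia or macrophage, and 916 to 2029.6 and 981 to 1379 CPM for astrocyte or radial glia markers. Their part in the shift of the integrin and laminin genes was not tested.

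For the abundant axonal chains, the intervals of the genotype effect were wide. Axonal Itgb1 averaged 1342 ± 868 CPM (SD, n = 4) in +/+ cultures. Its mean without hnRNP R was 1266 ± 425 CPM, and the log2 difference of -0.06 had a 95% interval from -1.08 to 0.95. The interval of Itga5 ran from -1.46 to 1.29, that of Itgb5 from -0.99 to 1.03 and that of Lamb1 from -1.94 to 1.57, so that in this fit, which does not use the replicate number, those of Itga5 and Lamb1 covered a 2-fold change in either direction. Narrower bounds were reached for Itgb1bp1 (-0.50 to 0.62), Lama1 (-0.65 to 0.49) and Itgav (-0.91 to 0.63) in axons and for Itga3 (-0.51 to 0.12), Itga6 (-0.29 to 0.43), Itgav (-0.37 to 0.67) and Itgb1 (-0.27 to 0.85) in the somatodendritic compartment.

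Itga9 had the lowest unadjusted p in axons (0.0247, edgeR, adjusted p = 1), with 5.05 ± 0.927 CPM in +/+ and 10.5 ± 5.26 CPM in Hnrnpr-/- libraries (log2 fold change 1.05, 95% interval 0.17 to 1.94), and every +/+ value except 6.37 CPM lay below the 4 Hnrnpr-/- values. This unadjusted p rose above 0.05 without +/+ axonal library 2 or 4 or Hnrnpr-/- axonal library 4, and the log2 fold change was 0.65 without the last of these. In the somatodendritic compartment, Itgal (1.58, interval 0.44 to 2.71, unadjusted p = 0.0109, adjusted p = 0.999 in edgeR) and Itgb4 (1.25, interval 0.03 to 2.46, unadjusted p = 0.0448, adjusted p = 0.999) had the lowest values, at means of at most 1.83 CPM. The unadjusted p of Itgb4 was above 0.05 in limma voom, in a fit of all 16 libraries and without +/+ somatodendritic library 2 or 4 or Hnrnpr-/- somatodendritic library 3 or 4, with log2 fold changes of 0.78 to 1.63 over single libraries left out. That of Itgal was above 0.05 in the fit of all 16 libraries. None of these passed the adjustment. A difference of the genotype effect between compartments was called for none of the 38 genes tested, with 0 past the adjusted threshold, 0 with an unadjusted p under 0.05 (0.0% and 1.33% of all genes) and a median difference of -0.21. Itga9 had the lowest unadjusted p of this test as well (0.80 on the log2 scale, 95% interval -0.19 to 1.78, unadjusted p = 0.105 and adjusted p = 1 in edgeR).

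**Figure D4:**
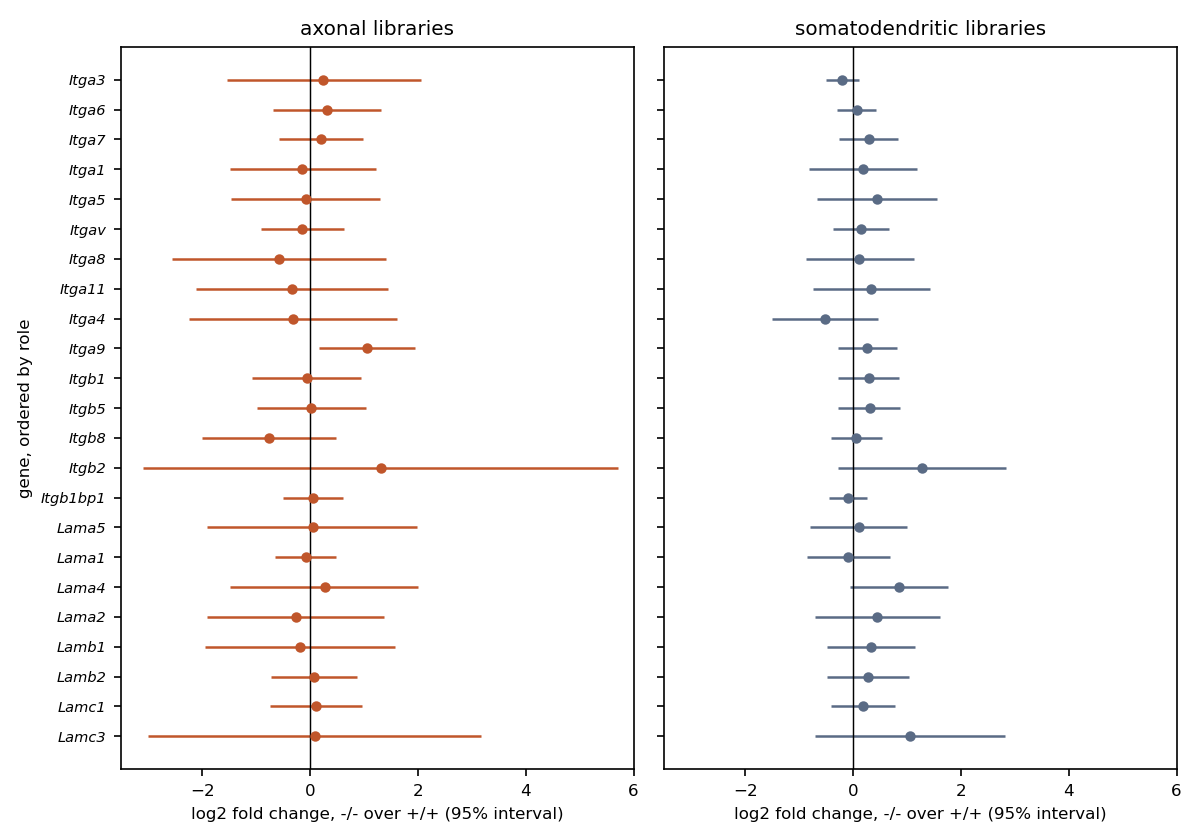
Log2 fold change of Hnrnpr-/- over +/+ libraries (x axis) with 95% intervals for 23 integrin and laminin genes (y axis), in axonal (left) and somatodendritic libraries (right), with 4 libraries per group. Intervals include 0 except for Itga9 in axons (0.17 to 1.94), which did not pass the adjustment over all genes.

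The partners of integrins and laminins were examined in 6 lists with 108 genes besides the 41. Of the 106 tested, 54 were called higher and 23 lower in +/+ axons, and 47 and 23 in Hnrnpr-/- axons, beside 30.1% and 27.4%, and 27.5% and 26.8%, of all genes. In the list of integrin activation and adhesion machinery, 19 of 36 rose and 7 fell in +/+ axons with a median of 1.15 on the log2 scale. Tgfb1i1, the adaptor Hic-5 of focal adhesions, went from 7.46 to 129 CPM (4.11 ± 0.48, adjusted p = 2.9e-05), Tns1, a tensin that links integrin tails to actin, from 17.7 to 113 CPM (2.67 ± 0.58, adjusted p = 0.00137) and Kank2, a talin binding protein, from 4.28 to 23.8 CPM (2.48 ± 0.46, adjusted p = 0.000479). Those that fell most were Arhgef7, a Rac and Cdc42 activator at adhesions (320.4 to 64.1 CPM, -2.32 ± 0.48, adjusted p = 0.00101), the kinase Src (58.7 to 17.6 CPM, -1.74 ± 0.18, adjusted p = 1.95e-05) and the neuronal talin Tln2 (126 to 51.6 CPM, -1.29 ± 0.25, adjusted p = 0.000704). The other talin, Tln1, rose from 43.9 to 199 CPM (2.18 ± 0.47, adjusted p = 0.00133) and was chosen for mention after its value was seen.

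Among integrin inhibitors, 2 of 3 rose, with Dok1 at 3.30 ± 0.61 (adjusted p = 0.000485) and Flna, filamin A, at 1.91 ± 0.38 (adjusted p = 0.000855). In the trafficking list, 5 of 15 were higher and 5 lower with a median of -0.24, near the shares of all genes (30.1% and 27.4%). Dab2, an endocytic adaptor of beta1 tails, rose by 2.80 ± 0.61 (adjusted p = 0.00145), Arf6 by 1.02 ± 0.24 (adjusted p = 0.00265) and Snx17, which returns beta1 to the surface, by 0.75 ± 0.14 (adjusted p = 0.000581), while Rab11fip5 (-2.18 ± 0.27, adjusted p = 4.06e-05), the Arf6 activator Psd (-2.03 ± 0.49, adjusted p = 0.00298) and the motor adaptor Mapk8ip3 (-1.62 ± 0.39, adjusted p = 0.00272) fell. In Hnrnpr-/- axons 6 of these 15 rose and 7 fell, beside 27.5% and 26.8% of all genes.

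Of the laminin receptors other than integrins, 7 of 20 were higher and 6 lower in +/+ axons with a median of 0.32. These counts were near the shares of all genes (30.1% and 27.4%). Mcam, a cell adhesion molecule of mural and endothelial cells that binds Lama4, went from 10.7 to 215 CPM (4.32 ± 0.60, adjusted p = 7.59e-05), and the syndecans Sdc4 (2.60 ± 0.40, adjusted p = 0.000132) and Sdc2 (2.38 ± 0.26, adjusted p = 2.39e-05) rose. Sdc3, the syndecan of neurons, fell from 1665 to 398 CPM (-2.06 ± 0.34, adjusted p = 0.000234). Dag1, the core protein of dystroglycan, was at 305 and 321 CPM (0.08 ± 0.18, adjusted p = 0.731).

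Of the other basement membrane genes, 10 of 13 rose and 1 fell in +/+ axons with a median of 2.02, and 5 rose and 1 fell in Hnrnpr-/- axons. The largest increases were those of Hspg2, perlecan (3.24 ± 0.65, adjusted p = 0.000816), Col4a1 (2.82 ± 0.91, adjusted p = 0.0156) and Smoc2 (2.73 ± 0.70, adjusted p = 0.00401). Agrn, the heparan sulfate proteoglycan by which motor axons cluster acetylcholine receptors, was the member that fell (311 to 129 CPM, -1.27 ± 0.21, adjusted p = 0.000213). Among 19 other integrin ligands, 11 rose and 4 fell in each genotype, with a median of 1.81 in +/+ axons. The matricellular proteins Ccn1 (22.9 to 1515 CPM, 6.05 ± 0.92, adjusted p = 0.000128), Ccn2 (39.6 to 2034 CPM, 5.68 ± 0.90, adjusted p = 0.00017) and Thbs1 (141 to 2619.7 CPM, 4.22 ± 0.82, adjusted p = 0.000697) rose most. Those that fell most were Edil3 (-3.29 ± 0.78, adjusted p = 0.00245), the axonal adhesion molecule L1cam (-3.27 ± 0.66, adjusted p = 0.000899) and tenascin R, Tnr (-2.60 ± 0.59, adjusted p = 0.00201). Of these 108 genes, 0 passed the adjusted threshold in edgeR for the genotype in either compartment, and 0 of 104 in axons and 1 of 100 in the somatodendritic compartment had an unadjusted p under 0.05.

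**Figure D5:**
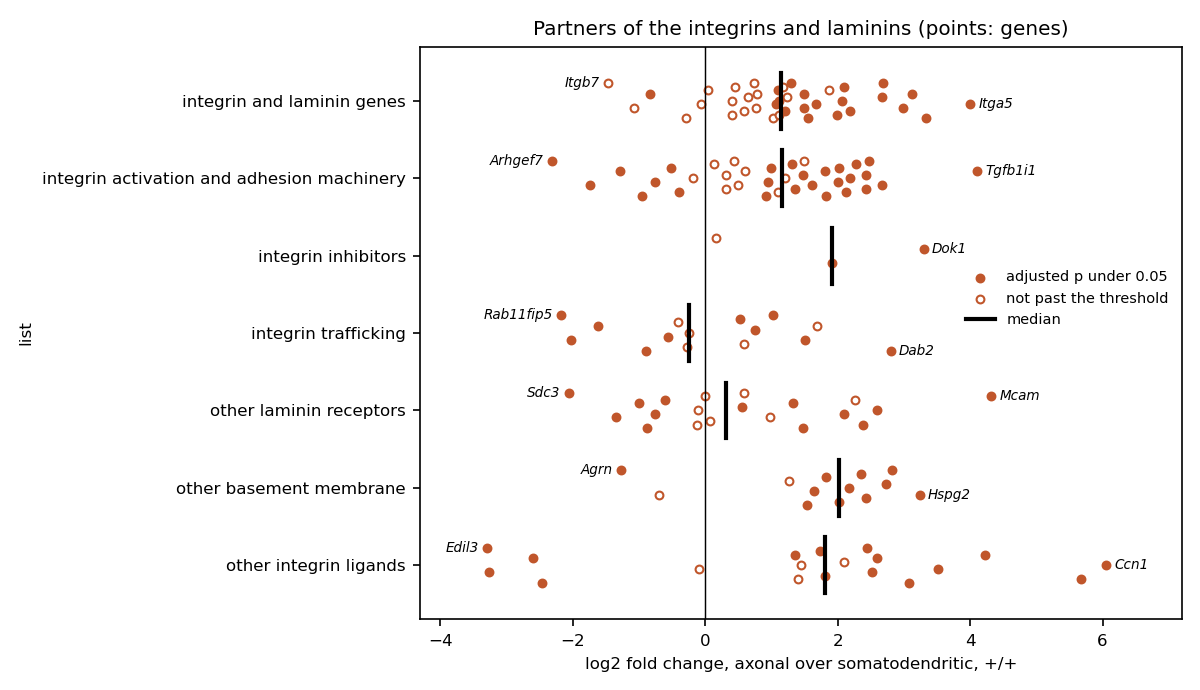
Log2 fold change of axonal over somatodendritic +/+ libraries (x axis) for each gene (points) of the integrin and laminin genes and of 6 lists of their partners (y axis), with medians as vertical bars and filled points for an adjusted p under 0.05. Medians range from -0.24 for integrin trafficking to 2.02 for other basement membrane genes, and the other integrin ligands span from Edil3 at -3.29 to Ccn1 at 6.05.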

How the data were processed

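RNA of 16 samples, 4 in each of 4 groups, was amplified with a kit that does not keep the strand and sequenced by the authors. Per the submitters' processing notes and the study's methods, reads were aligned with STAR 2.7.2b and assigned to genes with featureCounts 1.6.4. This counting used a reverse-stranded setting and split reads with several matches or overlapping genes into fractions, so that values of genes that overlap others are uncertain. Reads were mapped to the RefSeq version of GRCm39, whereas the exon overlaps given here are from GENCODE vM39. Exon lengths differed between them, with 5984 bases counted for Itga1 and 21337 bases in GENCODE. The overlaps thus describe the counted exons only in part. The authors deposited estimated counts per gene, not all whole, with gene coordinates in GRCm39, and these were rounded to whole counts. Counting error is covered by the floor of 3 counts, other error by replicates. Library totals ranged from 22024923 to 34864151, and 0 rows lacked a gene name.

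Compartments and their interaction with genotype were fitted over all 16 libraries, and genotypes over the 8 libraries of a compartment, with the edgeR 4.0.16 quasi-likelihood test in R 4.3.3 (TMM factors, default expression filter, Benjamini-Hochberg adjustment over all genes tested). Alternatives were RLE factors, library totals, 2 other filters, DESeq2 1.42.0, limma 3.58.1 voom, other libraries in the fit, a replicate block and each library left out. Leaving out axonal library 3 of both genotypes, or +/+ axonal library 1 with Hnrnpr-/- axonal library 4, was added after seeing the data. Somatodendritic and axonal libraries of the same number deviated together from their group means (correlations of 0.105 to 0.241 in +/+ and 0.175 to 0.508 in Hnrnpr-/- cultures, each highest with its own number), so the number was taken to mark a culture. The scripts were tested on simulated data.

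The genes and lists were chosen with earlier results of these data known. Genes with a mean of at least 5 CPM in any group are given in every library and others by range. Of each partner list, up to 3 called genes with the largest rise and up to 3 with the largest fall in +/+ cultures are named, among those with at least 5 CPM in a group. Some genes that enter the counts, medians and shares are not reported here.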

Additional observations from a re-analysis of the deposited data

Results flagged for a closer look

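In 11 of 96 groups of 4 libraries, covering the 24 genes with at least 5 CPM in a group, a single library stood apart from the others by more than the 95% critical value of Dixon's test. For independent values with a normal distribution, chance marks about 1 in 20 such groups. These CPM include values of 0, and the same libraries recur across genes. The number of groups is therefore not read as an excess over chance. Among axonal libraries, Lama5 was at 149 CPM in +/+ library 3 beside 17.2 to 29.7 CPM in the others, and at 149 CPM in Hnrnpr-/- library 3 beside 20.5 to 29.7 CPM. Itga3 was at 364 CPM in Hnrnpr-/- axonal library 3 beside 62.0 to 81.6 CPM. Itgb2 was at 8.48 CPM in +/+ axonal library 1 beside 0 to 1.22 CPM, and at 21.7 CPM in Hnrnpr-/- axonal library 4 beside 0 to 2.05 CPM. Lama4 was at 57.2 CPM in Hnrnpr-/- axonal library 4 beside 5.87 to 13.5 CPM, and Itga4 at 11 CPM in +/+ axonal library 4 beside 2.68 to 4.02 CPM. Itgb8 was at 67.8 CPM in +/+ axonal library 2 beside 11.9 to 19.4 CPM.

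Among somatodendritic libraries, Itgb8 was at 10.1 CPM in +/+ library 4 beside 19.4 to 19.7 CPM, Itgb1 at 269 CPM in +/+ library 3 beside 128 to 147 CPM, and Itgav at 27.5 CPM in Hnrnpr-/- library 2 beside 42.2 to 44.1 CPM.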

How the results depend on the processing

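Between 15 and 19 integrin and laminin genes were called higher in +/+ axons over the alternatives (13 to 20 with single libraries left out), and 14 to 16 in Hnrnpr-/- axons (13 to 16). The number called lower in +/+ axons, 1 as reported, was 0 with library totals and with a filter of 10 counts per library, 3 in DESeq2 with default settings, 2 in DESeq2 with betaPrior, 2 in a fit of the 8 +/+ libraries, 2 without axonal library 3 of both genotypes, 2 without +/+ axonal library 1 and Hnrnpr-/- axonal library 4 (Itga9 and Itgam), and 0 to 2 with single libraries left out. In Hnrnpr-/- axons, 0 as reported became 1 without a filter and in both DESeq2 settings (Itgb2l), 1 in a fit of its 8 libraries (Itgb7), and 0 to 1 with single libraries left out. The median genotype effect of axons minus somatodendritic libraries, -0.21 as reported, ran from -0.60, without Hnrnpr-/- axonal library 4, to 0.14. Library totals moved the median of all genes from 0.07 to 0.22 in +/+ cultures.

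The median genotype effect in axons, 0.06 as reported, ran from -0.30 to 0.21 over the alternatives and from -0.16 to 0.38 with single libraries left out. Among single genes with a reported difference between compartments, signs turned for those not called. In Hnrnpr-/- cultures, Itga9 became 0.08 with library totals, 0.02 with at least 10 counts, 0.02 in a fit of the 8 libraries and 0.18 without axonal library 3, and Itgb8 became 0.10, 0.03, 0.03 and 0.04 under these settings and 0.01 without a filter. In limma voom, Lamc3 (-1.77) and Itgb2 (-1.78) turned in +/+ and Itga11 (-0.18) and Itgb2 (-2.05) in Hnrnpr-/- cultures. With the replicate block these were -0.76, -0.77, -0.16 and -1.23. Without axonal library 3, Lama1 turned in +/+ (-0.02) and in Hnrnpr-/- cultures (-0.06). Without +/+ axonal library 1 and Hnrnpr-/- axonal library 4, Itgb2 turned in +/+ (-1.66) and Itga11 (-0.45), Lama4 (-0.63) and Itgb2 (-2.18) in Hnrnpr-/- cultures. With single libraries left out, the ranges in +/+ cultures were -0.05 to 1.05 for Itga11, -1.67 to 1.27 for Itgb2, -0.07 to 1.07 for Itgb8, -0.11 to 0.17 for Lama1 and -1.26 to 0.95 for Lamc3. In Hnrnpr-/- cultures they were -0.45 to 0.43 for Itga11, -0.43 to 0.20 for Itga9, -2.19 to 1.55 for Itgb2, -0.28 to 0.12 for Itgb8, -0.20 to 0.23 for Lama1, -0.63 to 0.73 for Lama4 and -1.54 to 0.18 for Lamc3. The cause of these turns was not tested.

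With the replicate block, 16 genes were called higher and 1 lower in +/+ and 16 higher in Hnrnpr-/- axons, and the block changed no call besides those given for Itga3, Itga8, Itgb1bp2, Itgb4 and Lama2. Between genotypes, libraries of the same number correlated from 0.009 to 0.677 in axons and from -0.046 to 0.359 in somatodendritic libraries, and only axonal libraries 2 and 3 and somatodendritic library 3 correlated best with their own number. Since not every pair exceeded 0.1, the number was not taken to pair the genotypes. With the number as a block, 0 integrin and laminin genes were called for genotype, as without it. The SE of the axonal genotype difference was then 0.27 in place of 0.61 for Itga5 (log2 fold change 0.21) and 0.32 in place of 0.78 for Lamb1 (0.23). The axonal difference of Itga9 (0.93) no longer had an unadjusted p under 0.05, nor did it without +/+ axonal library 1 and Hnrnpr-/- axonal library 4 (0.79). The same held for the somatodendritic difference of Itgb4 with the block (1.21). In somatodendritic libraries Itgb1 (0.32), Lama4 (0.72) and Itgal (1.53) had an unadjusted p under 0.05 with this block, with an adjusted p = 0.983 in edgeR.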
